A study of Arabidopsis thaliana with 6 samples.

Results

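The genes described here are the nuclear genes for the protein subunits of the photosystems, their light-harvesting antennae and the small subunit of Rubisco in Arabidopsis thaliana. They were listed by gene name, with earlier results of these data known, as LHCA1 to LHCA6, all LHCB1 to LHCB6 genes, the nuclear PSA and PSB subunits and the RBCS genes, and all 46 were found among the 44200 features of the count table. They comprise 6 LHCA, 14 LHCB, 12 PSA, 10 PSB and 4 RBCS genes. The study asked how nuclear speckle RNA-binding proteins (NSRs), which act in alternative splicing, affect the transcriptome. Polyadenylated RNA was sequenced from 3 libraries of the nsra/b double mutant and 3 libraries of the wild type Col-0. In the mutant, a T-DNA disrupts each of the NSR genes, its background is Col-0, and all plants had the same treatment. By the labels, plantlets grown on half-strength MS medium in 16 h light and 8 h dark were transferred at 14 days to mock medium, also half-strength MS, for 24 h and collected whole at 15 days. The study's methods give another age at transfer, and how many plantlets went into a library is not given in the sources used here.

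Photosystem II splits water and photosystem I reduces ferredoxin, and each draws excitation energy from an antenna of chlorophyll-binding proteins. LHCB proteins serve mainly photosystem II, while LHCA proteins serve photosystem I. LHCB1, LHCB2 and LHCB3 form trimers, and LHCB4, LHCB5 and LHCB6 are minor antennae next to the core. The core subunits that carry the reaction centre pigments are encoded in the plastid, so the nuclear PSA and PSB genes encode the peripheral subunits, and RBCS encodes the small subunit of the enzyme that fixes CO2. These nuclear genes are transcribed in green tissue under the control of light, the circadian clock, GLK transcription factors and signals from the plastid.

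Counts per library lay between 25936176 and 32578330, and TMM scaling factors between 0.992 and 1.01. Levels are given as CPM, counts relative to the scaled library total, and genes are ranked against each other by TPM over all 6 libraries, which also divides by exon length. Replicates were close (common biological coefficient of variation 0.0203), so small differences passed the test. The sources used here do not pair the NSR genes with identifiers of the table, so the mutation was not checked from the counts. A pair of genes annotated as RNA-binding or nucleic acid-binding, singled out after their values were seen, leaves a doubt. AT1G76940 had 4987, 5898 and 5577 counts in the libraries labelled nsra/b, against 396, 519 and 441 in those labelled Col-0. AT1G21320 had 81, 78 and 88 counts in the libraries labelled nsra/b, against 17, 25 and 25 in those labelled Col-0. Whether they are the mutated genes was not determined. If they are, their higher level in the libraries labelled nsra/b goes against a loss of transcript, and an exchange of the labels would turn every direction given here. In all that follows, nsra/b and Col-0 therefore mean the libraries so labelled. The labels do not say whether libraries came from separate cultures, although the study's methods call them biological replicates.

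Nuclear antenna and photosystem genes were mostly slightly lower in nsra/b, the LHCB1 genes most of all, while PSBS, PSBO2 and LHCA6 were higher. With edgeR's quasi-likelihood test and Benjamini-Hochberg adjustment over 21606 tested features, 15 of the 46 members were called at an adjusted p under 0.01. Of these, 12 were lower and 3 higher in nsra/b, whereas 3.58% of all tested features were called lower and 5.28% higher. All 46 members passed the filter on low counts. The power of the test grows with depth, and the members are among the most abundant transcripts of the seedling. Among 331 other features with a mean of at least 300 CPM, a limit chosen after seeing the data, 15.7% were called lower and 19.3% higher. Of the 43 members as abundant as that, 11 were called lower and 2 higher. The log2 fold change was negative in 37 members and positive in 9, with a median of -0.042, against a median of 0.00 over all tested features. All nsra/b libraries lay below all Col-0 libraries in 20 members, and all lay above in 5, while 14.1% of tested features were fully below and 15.9% fully above. Among the 331 other features of at least 300 CPM, these shares were 30.2% and 32.9%. Fewer photosynthetic cells and less RNA per cell cannot be told apart in whole plantlets.

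**Figure D1:**
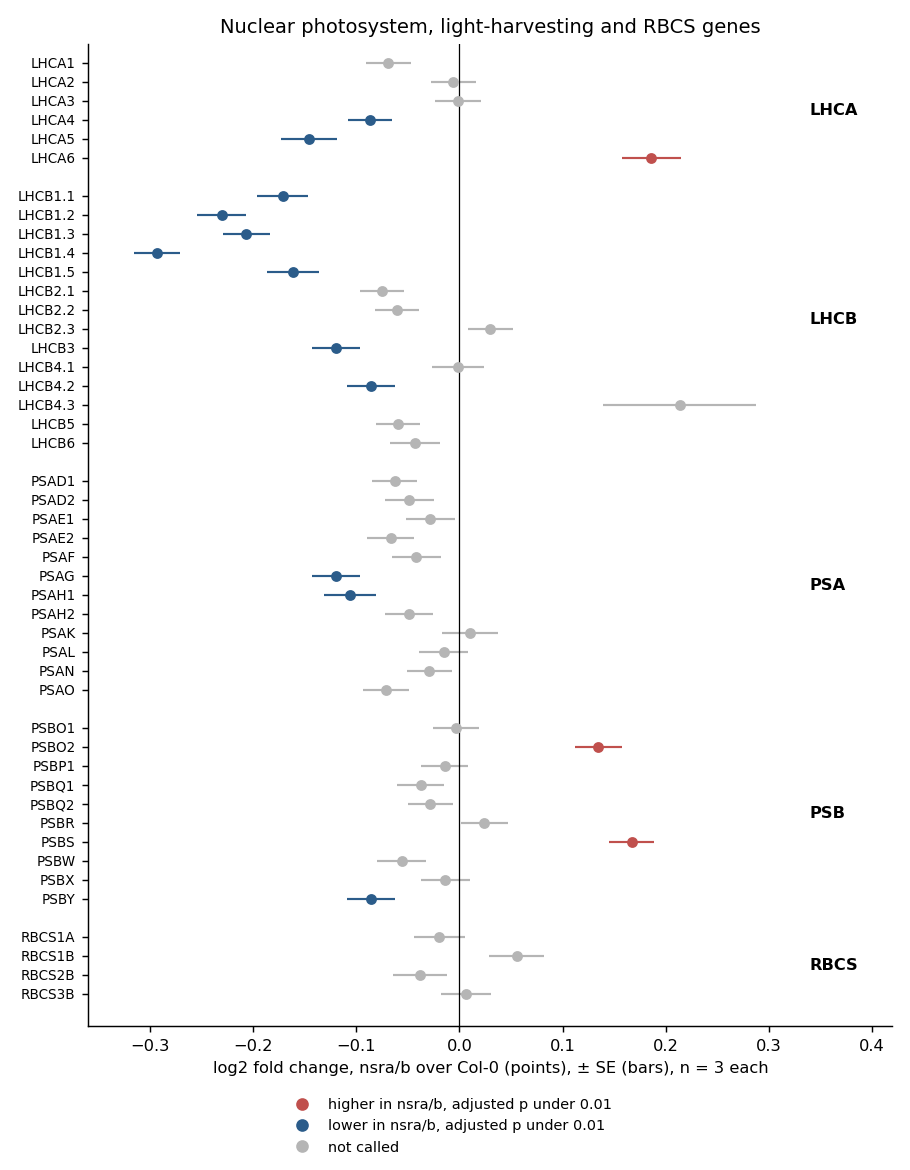
Log2 fold change of nsra/b over Col-0 for each of the 46 members, grouped by family from top to bottom, with bars for the standard error (n = 3 libraries per genotype). Members called higher are red, members called lower blue and those not called grey, and the 5 LHCB1 genes form the lower end, from -0.29 to -0.16.

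Summed over all 46 genes, the members took 14.4%, 14.4% and 14.1% of the counts in nsra/b, against 15.2%, 15.0% and 14.8% in Col-0. The ratio of the mean summed CPM, nsra/b over Col-0, was 0.947. The difference came largely from the LHCB family, which summed to 62201 ± 931 CPM in nsra/b and 68763 ± 1759.8 CPM in Col-0 (SD, n = 3 each), a ratio of 0.905. The photosystem I families lay closer to Col-0, with LHCA at 22041 ± 159 CPM in nsra/b and 22814 ± 385 CPM in Col-0 (SD, n = 3 each) and PSA at 18271 ± 252 CPM in nsra/b and 18913 ± 359.8 CPM in Col-0 (SD, n = 3 each), and both had a ratio of 0.966. PSB summed to 22790.5 ± 273 CPM in nsra/b and 22736 ± 390.1 CPM in Col-0 (SD, n = 3 each), and RBCS to 17274 ± 658 CPM in nsra/b and 17331 ± 479 CPM in Col-0 (SD, n = 3 each), and in both families the libraries of the genotypes overlapped.

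**Figure D2:**
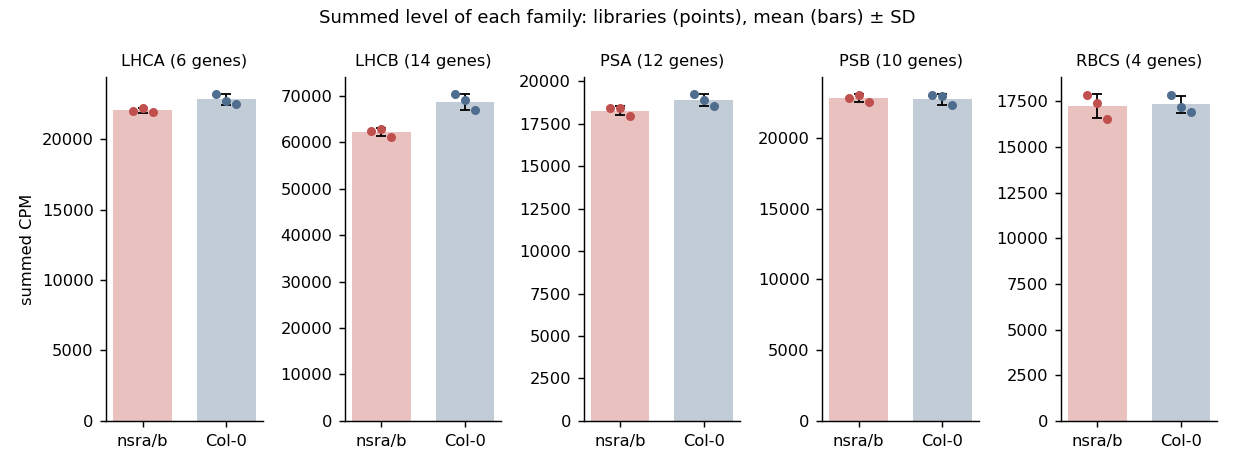
Summed CPM of each family, with 1 point per library, bars for the mean and error bars for the SD, nsra/b left of Col-0. The LHCB libraries of nsra/b lie fully below those of Col-0, whereas the PSB and RBCS points overlap.

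The 5 LHCB1 genes, which encode the major protein of the photosystem II antenna, all fell in nsra/b. They lie in clusters on chromosomes 1 and 2 of TAIR10. LHCB1.5 (AT2G34420, chr2:14522524-14523568, minus strand) had the highest TPM of the LHCB family over all libraries, just above LHCB1.3. LHCB1.5 had 11858, 11942 and 11074 CPM in nsra/b, against 13277, 12995 and 12731 CPM in Col-0. Its log2 fold change was -0.16 ± 0.025 (SE, adjusted p = 1.27e-05). Its nsra/b libraries were all lower than its Col-0 libraries, and replicate 3 of nsra/b was the lowest. LHCB1.4 (AT2G34430, chr2:14524607-14525918, plus strand), its neighbour in the opposite orientation, had 2303, 2315 and 2220.2 CPM in nsra/b, against 2829.8, 2802 and 2747 CPM in Col-0. This was the largest change of any member, -0.29 ± 0.022 (SE, adjusted p = 8.91e-12), and nsra/b fell by 18.4% without overlap between the genotypes.

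The other LHCB1 genes lie next to each other on chromosome 1. LHCB1.3 (AT1G29930, chr1:10477885-10479114, plus strand) had 13159, 13436 and 13313 CPM in nsra/b, against 15641, 15567 and 14841 CPM in Col-0, a log2 fold change of -0.21 ± 0.023 (SE, adjusted p = 2.81e-08). LHCB1.2 (AT1G29910, chr1:10472280-10473502, minus strand) had 4667, 4697 and 4678 CPM in nsra/b, against 5709, 5486 and 5282 CPM in Col-0, a log2 fold change of -0.23 ± 0.024 (SE, adjusted p = 7.95e-09). LHCB1.1 (AT1G29920, chr1:10474656-10475969, minus strand) had 5087, 5114 and 4981 CPM in nsra/b, against 5927, 5728 and 5444 CPM in Col-0, a log2 fold change of -0.17 ± 0.025 (SE, adjusted p = 4.06e-06). In all of them the nsra/b libraries stood close together below the Col-0 libraries, among which replicate 1 was the highest and replicate 3 the lowest.

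These genes are similar copies, and a read that matches several of them was placed on only 1. Of all windows of 100 bases in the transcripts, 4.44% in LHCB1.1, 1.51% in LHCB1.2, 4.07% in LHCB1.3 and 3.30% in LHCB1.4 also occurred in another annotated gene. LHCB1.5 lies wholly within an annotated gene on the other strand, AT2G08665, which had at most 230 counts in a library, against at least 308424 for LHCB1.5. Counting was by strand. Summing copies left the change in place, with a log2 fold change of -0.20 for LHCB1.1 to LHCB1.3 together (adjusted p = 3.22e-08) and -0.18 for LHCB1.4 with LHCB1.5 (adjusted p = 6.82e-07). With copies counted together, how much each single gene contributed remains uncertain.

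Because the LHCB1 genes moved together, the 250 bases before their annotated starts are shown, from RefSeq on TAIR10.1, read 5′ to 3′ on the strand of the gene. Capitals mark matches to the motifs searched. They were the G-box CACGTG, the I-box GATAAG, the clock-related CCA1 site AAAAATCT and the motif CCAATC known from promoters of GLK-induced genes, all on both strands, and the TATA box TATAAA on the strand of the gene. The windows are chr1:10475970-10476219 and chr1:10473503-10473752 on the minus strand, chr1:10477635-10477884 and chr2:14524357-14524606 on the plus strand, and chr2:14523569-14523818 on the minus strand.
LHCB1.1: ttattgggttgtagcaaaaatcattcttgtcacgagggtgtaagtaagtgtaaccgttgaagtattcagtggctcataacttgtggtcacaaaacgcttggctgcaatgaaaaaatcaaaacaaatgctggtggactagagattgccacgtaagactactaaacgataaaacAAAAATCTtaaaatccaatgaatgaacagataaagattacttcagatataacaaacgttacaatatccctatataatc
LHCB1.2: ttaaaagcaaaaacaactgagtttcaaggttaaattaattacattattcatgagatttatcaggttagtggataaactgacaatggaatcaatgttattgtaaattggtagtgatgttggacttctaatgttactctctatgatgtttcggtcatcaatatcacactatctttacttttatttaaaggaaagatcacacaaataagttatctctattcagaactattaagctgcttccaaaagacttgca
LHCB1.3: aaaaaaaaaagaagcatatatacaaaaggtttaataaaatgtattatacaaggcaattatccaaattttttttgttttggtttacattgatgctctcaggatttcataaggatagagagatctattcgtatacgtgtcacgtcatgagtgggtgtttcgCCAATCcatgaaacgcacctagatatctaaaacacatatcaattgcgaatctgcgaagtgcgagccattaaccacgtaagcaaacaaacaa
LHCB1.4: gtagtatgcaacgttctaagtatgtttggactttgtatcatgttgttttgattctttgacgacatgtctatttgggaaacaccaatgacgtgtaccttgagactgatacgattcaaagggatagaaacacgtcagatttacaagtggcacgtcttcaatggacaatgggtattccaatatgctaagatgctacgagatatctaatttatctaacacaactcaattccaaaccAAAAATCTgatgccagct
LHCB1.5: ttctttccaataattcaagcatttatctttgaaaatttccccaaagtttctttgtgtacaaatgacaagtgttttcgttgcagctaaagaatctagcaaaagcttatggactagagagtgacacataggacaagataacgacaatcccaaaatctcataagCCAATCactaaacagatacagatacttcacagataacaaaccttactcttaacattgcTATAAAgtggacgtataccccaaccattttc

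The windows of LHCB1.1 and LHCB1.4 each held a CCA1 site, those of LHCB1.3 and LHCB1.5 a GLK motif, LHCB1.5 also a TATA box, and that of LHCB1.2 held no match. None of the motifs searched thus stood in all 5 windows, and whether they bear on the change was not tested. Over all members, the GLK motif stood in 11 of 46 windows, 7 of them LHCB and 3 LHCA, against 10.5% of 37897 windows of the same length. The G-box stood in 9 windows, the I-box in 10 and the CCA1 site in 5, against 5.39%, 12.7% and 6.11% of all windows. The TATA box was found in 12, against 30.3%. A match describes the letters only, and annotated starts can lie away from the start of transcription.

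Of the other 9 antenna genes of photosystem II, LHCB3 and LHCB4.2 were called, both lower, beside 15.7% of other features of at least 300 CPM. LHCB3 (AT5G54270, chr5:22038165-22039568, plus strand), the third trimer protein, had 5235, 5238 and 5129 CPM in nsra/b, against 5799, 5712 and 5443 CPM in Col-0. Its log2 fold change was -0.12 ± 0.023 (SE, adjusted p = 0.000319), with no overlap between the genotypes. LHCB4.2, a minor antenna gene, fell by 0.086 on the log2 scale (adjusted p = 0.00955). Of the remaining genes, the trimer genes LHCB2.1, LHCB2.2 and LHCB2.3 had log2 fold changes of -0.075, -0.060 and 0.030, and none was called by edgeR. The minor antenna genes LHCB4.1, LHCB5 and LHCB6 had -0.0015, -0.060 and -0.043, also not called by edgeR. DESeq2 called LHCB2.1 (adjusted p = 0.00132) and LHCB5 (adjusted p = 0.00478) lower, and limma voom called these and LHCB2.2. LHCB2.1 and LHCB2.2 share 9.87% and 12.4% of their windows of 100 bases, and their sum had a log2 fold change of -0.069 (adjusted p = 0.0226). LHCB4.3, which is barely expressed in this tissue, lay between 7.83 and 9.67 CPM and had the only large positive value of the family, 0.21, with an adjusted p of 0.0473.

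**Figure D3:**
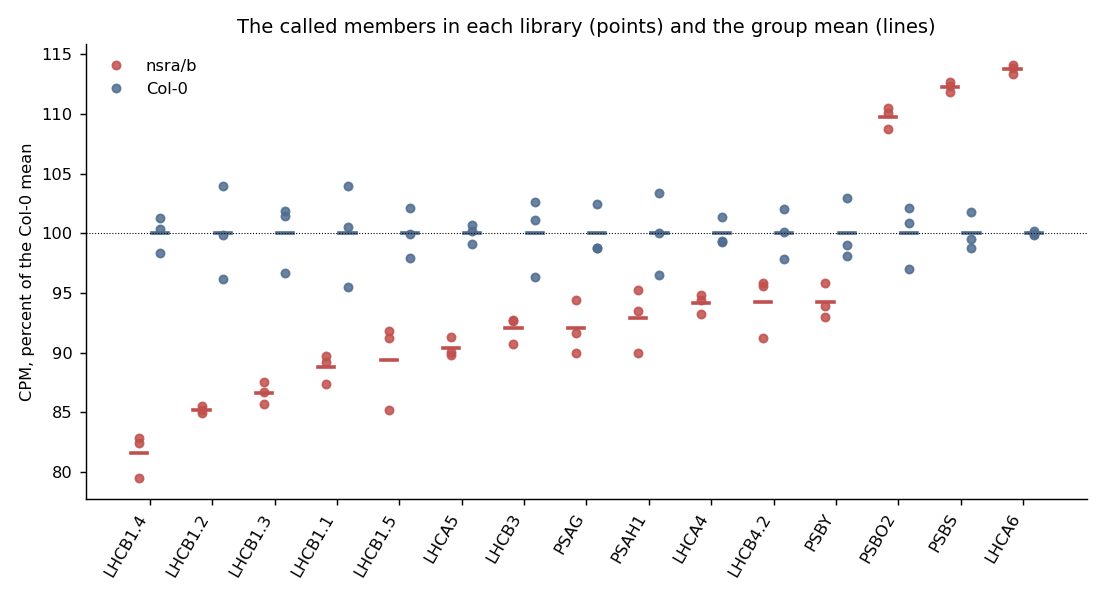
CPM of the 15 called members in each library as a percentage of the Col-0 mean of the gene, with lines for group means, nsra/b left of Col-0, ordered by fold change. In each gene the 3 nsra/b libraries lie on 1 side of the 3 Col-0 libraries, from LHCB1.4 at the low end to LHCA6 at the high end.

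The antenna of photosystem I moved in both directions. LHCA4 (AT3G47470, chr3:17493343-17495033, minus strand), an abundant outer antenna protein and the highest of its family in TPM, had 7508, 7634 and 7602 CPM in nsra/b, against 8159, 7998 and 7991 CPM in Col-0. It fell by 0.086 on the log2 scale, with an SE of 0.021 (adjusted p = 0.0042). The low-abundance genes LHCA5 and LHCA6, whose proteins link photosystem I to the NDH complex of cyclic electron flow, moved in opposite directions. LHCA5 (AT1G45474, chr1:17179250-17180806, plus strand) had 111, 109.5 and 109.8 CPM in nsra/b, against 123, 121 and 122 CPM in Col-0, a log2 fold change of -0.15 ± 0.027 (SE, adjusted p = 0.000172). LHCA6 (AT1G19150, chr1:6612630-6613972, plus strand) had 93.2, 92.9 and 92.5 CPM in nsra/b, against 81.8, 81.6 and 81.5 CPM in Col-0, a log2 fold change of 0.19 ± 0.029 (SE, adjusted p = 1.18e-05). In both genes the replicates differed by far less than the genotypes did. LHCA1, LHCA2 and LHCA3 were not called by edgeR, at -0.069, -0.0059 and -0.0011. All nsra/b libraries of LHCA1 lay below those of Col-0, and both DESeq2 (adjusted p = 0.00531) and limma voom called it lower.

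Of the 12 photosystem I subunit genes, 11 had a negative log2 fold change and 2 were called, both lower. That count is near the share called lower among other features of at least 300 CPM, 15.7%. PSAG (AT1G55670, chr1:20802670-20803449, minus strand), a peripheral subunit near the LHCA belt, had 2007, 2068 and 1970.0 CPM in nsra/b, against 2243, 2163 and 2162 CPM in Col-0. Its log2 fold change was -0.12 ± 0.023 (SE, adjusted p = 0.000287), with no overlap between the genotypes. PSAH1 (AT3G16140, chr3:5467987-5469594, minus strand), a subunit at the site where the mobile antenna docks, had 670.1, 683 and 645 CPM in nsra/b, against 741, 717 and 692 CPM in Col-0, with a log2 fold change of -0.11 ± 0.025 (SE, adjusted p = 0.00316). For PSAH1 the genotypes were separated by the small gap between replicate 2 of nsra/b and replicate 3 of Col-0. Each overlaps a gene on the other strand, AT1G55673 for PSAG and AT3G16130 for PSAH1, with at most 29 and 2 counts in a library. PSAO (AT1G08380, chr1:2640803-2641934, minus strand), the highest of its family in TPM over all libraries although PSAG was marginally above it in Col-0 alone, had 2177, 2205 and 2181 CPM in nsra/b, against 2349, 2316 and 2230.5 CPM in Col-0. It was not called by edgeR, at -0.071 ± 0.022 (SE, adjusted p = 0.0274), although its libraries did not overlap and limma voom called it lower. The ferredoxin-docking subunits PSAD1, PSAD2, PSAE1 and PSAE2 had -0.063, -0.048, -0.028 and -0.067. The other 5 subunits, PSAF, PSAH2, PSAK, PSAL and PSAN, ranged from -0.049 to 0.0098.

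Of the 10 PSB genes of photosystem II, 2 were called higher and 1 lower. Among other features of at least 300 CPM, 19.3% were called higher and 15.7% lower, shares near these. PSBS (AT1G44575, chr1:16870221-16873427, plus strand), the sensor of lumen acidity in the dissipation of excess light as heat, had 1050.3, 1055 and 1058 CPM in nsra/b, against 955, 934 and 927 CPM in Col-0. Its log2 fold change was 0.17 ± 0.022 (SE, adjusted p = 7.17e-07), and nsra/b was higher in every library. PSBO2 (AT3G50820, chr3:18890874-18892508, minus strand), a copy of the manganese-stabilizing protein of the water-splitting site, had 1438, 1456 and 1461 CPM in nsra/b, against 1350.5, 1334 and 1283 CPM in Col-0, with a log2 fold change of 0.13 ± 0.023 (SE, adjusted p = 4.61e-05). Its more abundant copy PSBO1 overlapped between genotypes, at -0.0032. PSBY, a small membrane subunit, fell by 0.086 (adjusted p = 0.00894). PSBR (AT1G79040, chr1:29735952-29737009, plus strand), a luminal subunit and the highest of its family in TPM, had 4380.5, 4459 and 4238 CPM in nsra/b, against 4338, 4316 and 4205 CPM in Col-0, which overlapped. The oxygen-evolving subunits PSBP1, PSBQ1 and PSBQ2 had -0.014, -0.037 and -0.028, and the small subunits PSBW and PSBX -0.056 and -0.014, none of them called.

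No RBCS gene was called by edgeR, DESeq2 or limma voom. RBCS1A (AT1G67090, chr1:25048158-25049667, minus strand), the highest of its family in TPM, had 8229, 8033 and 7677 CPM in nsra/b, against 8331, 8079 and 7856 CPM in Col-0, and these overlapped throughout. Its log2 fold change was -0.020 ± 0.025 (SE, adjusted p = 0.675), with a 95% interval from -0.068 to 0.029. RBCS1B, RBCS2B and RBCS3B lie together on chromosome 5 and had 0.055, -0.038 and 0.0063. Only RBCS1B had an unadjusted p under 0.05 in edgeR. Their sum, taken because the copies are similar, had a log2 fold change of 0.0082 (adjusted p = 0.88).

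Ratios between genes of the same library do not depend on scaling between libraries. They were chosen after their values were seen and are given as a description. The counts of all LHCB genes over all RBCS genes were 3.50, 3.61 and 3.69 in nsra/b, against 3.94, 4.01 and 3.95 in Col-0. The LHCB1 genes over the LHCB2 genes gave 5.10, 5.15 and 5.01 in nsra/b, against 5.65, 5.61 and 5.52 in Col-0. The LHCB genes were thus lower relative to RBCS, and the LHCB1 genes relative to their LHCB2 partners in the trimer. LHCB1.4 over LHCB1.5, a pair of neighbours, averaged 0.196 ± 0.00373 in nsra/b and 0.215 ± 0.00148 in Col-0 (SD, n = 3 each). PSBO2 over PSBO1 gave 0.275, 0.278 and 0.283 in nsra/b, against 0.253, 0.254 and 0.253 in Col-0. In each of these ratios the genotypes did not overlap. LHCA over PSA averaged 1.21 ± 0.0118 in nsra/b and 1.21 ± 0.00421 in Col-0 (SD, n = 3 each), and its libraries overlapped.

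**Figure D4:**
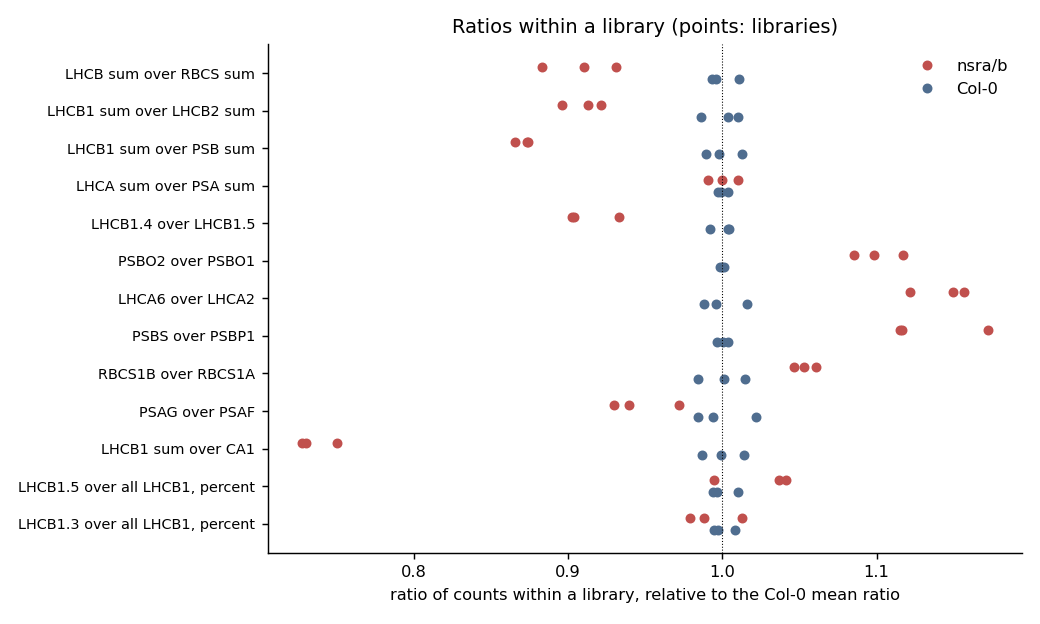
Ratios of counts within a library, divided by the Col-0 mean of each ratio, with 1 point per library and nsra/b above Col-0. The LHCB sum over the RBCS sum lies lower in all 3 nsra/b libraries, whereas the LHCA sum over the PSA sum overlaps.

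Other genes of photosynthesis were read from lists chosen with earlier results of these data known, and no difference between lists was tested. Of the 21 genes of the Calvin cycle list, which also holds carbonic anhydrase CA1, edgeR called 8, all higher. DESeq2 called 7, all higher. The median log2 fold change over the list was 0.062. CP12-2, a redox-dependent inhibitor of the cycle, had 0.34 ± 0.027 (SE, adjusted p = 2.07e-11), carbonic anhydrase CA1 0.25 ± 0.022 (SE, adjusted p = 2.4e-10), GAPB 0.15 ± 0.022 (SE, adjusted p = 5.9e-06) and SBPASE 0.14 ± 0.022 (SE, adjusted p = 3.93e-05). RCA, the Rubisco activase, was not called, at 0.041 ± 0.021 (SE, adjusted p = 0.216). Of 25 chlorophyll synthesis genes, 5 were lower and 2 higher, and 19 had a negative log2 fold change, with a median of -0.060. PPOX1, which makes protoporphyrin, had -0.33 ± 0.027 (SE, adjusted p = 4.19e-11), HEMA1, the first committed enzyme, 0.13 ± 0.024 (SE, adjusted p = 0.000171), HEME1 -0.12 ± 0.025 (SE, adjusted p = 0.000829) and GSA2 -0.13 ± 0.028 (SE, adjusted p = 0.00118). Of 14 electron transport and ATP synthase genes, 2 were called, both higher, FD2 at 0.13 and PGRL1A at 0.12. The chaperone CPSRP43, which carries LHC proteins to the thylakoid, was the only gene called of 8 in LHC targeting and phosphorylation, at -0.12 ± 0.028 (SE, adjusted p = 0.0034). These counts stand beside 3.58% called lower and 5.28% higher over all features, and 15.7% and 19.3% among other features of at least 300 CPM. Of the 21 Calvin cycle genes, 15 were that abundant and 5 of these were called, all higher. Of the electron transport genes, 10 were that abundant and 2 of these were called, a share near that background. Of the chlorophyll synthesis genes, 7 were that abundant, and the 5 called lower were all below that level.

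Among 18 regulators of photosynthesis genes, 3 were higher and 2 lower, beside 5.28% and 3.58% of all features. GLK2, an activator of LHCB genes, had 225, 222 and 221 CPM in nsra/b, against 244, 239.8 and 237 CPM in Col-0, with a log2 fold change of -0.11 ± 0.024 (SE, adjusted p = 0.00174). Its partner GLK1 was not called, at -0.023 ± 0.030 (SE, adjusted p = 0.694). HY5, a light-response transcription factor, had 16.8, 17.9 and 16.4 CPM in nsra/b, against 14.3, 14.1 and 15.1 CPM in Col-0, with 0.23 ± 0.058 (SE, adjusted p = 0.00495). With DESeq2 the adjusted p was 0.00119 for GLK2 and 0.0704 for HY5, and 1 of the 18 regulators was higher and 1 lower. The 9 plastid genes for reaction centre and other partner subunits, and all 134 plastid rows, were listed at 0 in every library, so nuclear and plastid subunits could not be compared.

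**Figure D5:**
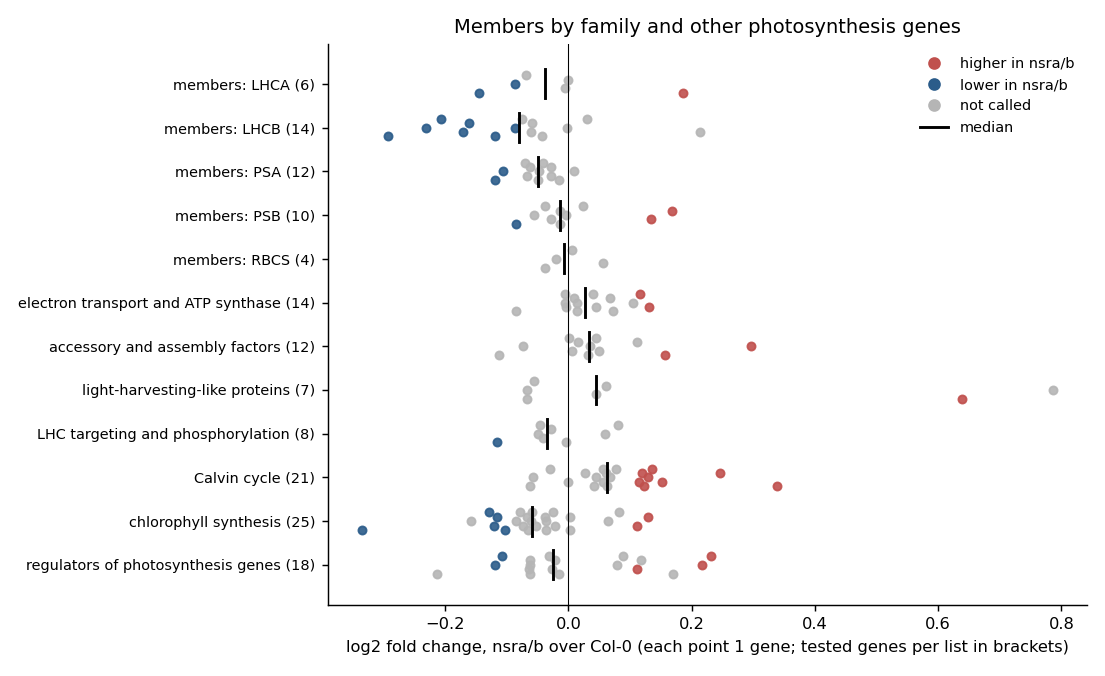
Log2 fold change of nsra/b over Col-0 for the 5 member families and 7 other lists of photosynthesis genes, with 1 point per tested gene and a line at the median. The LHCB median lies at -0.081 and that of the Calvin cycle genes at 0.062.

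Most root markers moved in the opposite direction to most LHCB genes. Of 24 root marker genes, which include root hair, endodermis and meristem genes, 23 were tested and 10 called by edgeR, all higher in nsra/b, beside 5.28% of all features. DESeq2 called 6 of them, without PER73, PRX44, CASP4 and ESB1. Of the 23 tested, 20 had a positive log2 fold change and 3 a negative one, none of these 3 called. They were the meristem genes PLT1 at -0.056 and PLT2 at -0.995, the latter with at most 21 counts in a library, and PIN2 at -0.088. The meristem gene WOX5 was not tested. None of the 24 was at 0, and their summed level was 4597, 4800.4 and 4998 CPM in nsra/b, against 4213, 4235 and 4405 CPM in Col-0. Most of this was PYK10, and without it the sum was 243, 266 and 268 CPM in nsra/b, against 221, 206 and 229.9 CPM in Col-0. In both genotypes replicate 3 had the lowest sum in every member family, not only LHCB, and the highest root marker sum. The summed level of 9 shoot epidermis and stomata markers, none at 0, was 309, 302 and 314 CPM in nsra/b, against 352, 336 and 336 CPM in Col-0, and 1 of them, PDF1, was called, at -0.29. Without PDF1 the sum was 162, 163 and 169 CPM in nsra/b, against 166, 166 and 166 CPM in Col-0, and the genotypes overlapped. In the same libraries the RBCS and PSB sums overlapped between genotypes, and the 8 genes called of the 21 in the Calvin cycle list were higher. Whether the marker differences have a part in the member changes was not tested.

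The calls rest on the small spread between replicates. With a biological coefficient of variation fixed at 0.1 in edgeR, 0 of the 46 members were called and only 1 had an unadjusted p under 0.05, while DESeq2 called 18 and limma voom 20. Without Col-0 replicate 2, 7 members were called lower in place of 12, and PSBY, LHCA4, LHCB4.2, PSAH1 and LHCB3 each lost the call when at least 1 library was left out, whereas the 5 LHCB1 genes, LHCA5, LHCA6, PSAG, PSBO2 and PSBS kept it each time.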

How the data were processed

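The authors deposited raw read counts per gene for 6 libraries. By the study's methods, stranded poly(A) libraries were sequenced in pairs (100 nt by the labels, another length in the methods), and reads were filtered with fastqc, mapped by tophat with a single placement for each read, and assigned to genes by summarizeOverlaps by strand in Union mode. The build was TAIR10 by the submitters' processing notes, and tool versions are not given in the sources used here. No column went unused.

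The quasi-likelihood test of edgeR 4.0.16 (R 4.3.3) was run after TMM scaling and filterByExpr (minimum count 10, minimum total 15), with no factor besides genotype. P-values were adjusted by Benjamini-Hochberg over 21606 features, and an adjusted p under 0.01 was called. The SE was taken as the size of the log2 fold change divided by the root of F. DESeq2 1.42.0 gave a larger SE for some genes, such as 0.039 against 0.025 for LHCB1.5. The 95% intervals are 1.96 SE to each side and, like p, measure the spread between these libraries only. Fits were tested on simulated counts with planted changes larger than those of most members. At the depth of most members these were mostly recovered, but the share of false calls lay somewhat above the nominal rate. Calls near the threshold are therefore less certain, and recovery of changes as small as those of most members was not tested. The recovery limit in that check was at first set for genes of any depth, was missed because shallow genes lack power, and was then set for deep genes. CPM use TMM-scaled library sizes. Gene positions, exon lengths and sequences came from RefSeq TAIR10.1.

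Members and lists were chosen with earlier results of these data known. Values in each library are printed for the 12 called members with the smallest p and the member of highest TPM in each family. Of other lists, up to 4 called genes by smallest p are named, with GLK1, GLK2, RCA and HY5, mostly by log2 fold change without values in each library. Genes that overlap a member, AT1G76940, AT1G21320, the root markers named, OHP1, LIL3.1 and LIL3.2 are named beyond that rule, chosen after their values were seen.

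Alternatives were other normalizations, filters and tools, a fixed dispersion, other thresholds, a replicate block, GC correction, summed copies and leaving out each library.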

Additional observations from a re-analysis of the deposited data

How the results depend on the processing

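The 1140 features called higher and 774 called lower became 632 and 455 with DESeq2, 136 and 67 with the biological coefficient of variation fixed at 0.1, 1833 and 1385 at an adjusted p under 0.05, and 325 and 169 with Bonferroni adjustment. Of the members, 3 higher and 12 lower became 0 and 0 with the fixed coefficient and 2 and 5 with Bonferroni. Leaving out each library in turn gave 793 to 1109 features higher and 494 to 750 lower, with 494 without Col-0 replicate 1 and 497 without Col-0 replicate 2. The members called lower ranged from 7 to 13 and those called higher stayed at 3, and the summed member ratio ranged from 0.936 to 0.957. The other normalizations, filters, limma voom and GC correction kept both member counts within 1.5 times. No call of a single member reversed under any alternative.

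Deviations of libraries with the same replicate number correlated at -0.012, 0.025 and 0.056. Those of libraries with different numbers correlated at values from -0.065 to 0.040. The median deviation of the members was lowest in replicate 3 of both genotypes, at -0.028 in Col-0 and -0.022 in nsra/b (log2). Whether libraries with the same number belong together was not tested. With the replicate block, 3 members were higher and 13 lower, with 1227 and 866 features in all, and with GC correction and the block 3 and 15.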

Other observations

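Of 12 accessory and assembly factors, 2 were called by edgeR, both higher in nsra/b, beside 5.28% of all features. LHCB7, a rare antenna relative, had 36.4, 33.5 and 32.3 CPM in nsra/b, against 29.2, 28.7 and 25.3 CPM in Col-0, with a log2 fold change of 0.30 ± 0.050 (SE, adjusted p = 4.95e-05). PPL2, a relative of PSBP linked to the NDH complex, had 0.16 ± 0.027 (SE, adjusted p = 5.02e-05). Of 7 light-harvesting-like proteins, 1 was called, higher, beside 5.28% of all features. Negative log2 fold changes were found in 3, -0.068 for OHP1, -0.057 for LIL3.1 and -0.067 for LIL3.2. Each of these 3 had an unadjusted p under 0.05 in edgeR but was not called. The gene called, ELIP1, an early light-induced protein, had 6.11, 6.51 and 6.67 CPM in nsra/b, against 4.64, 3.79 and 4.05 CPM in Col-0, with 0.64 ± 0.099 (SE, adjusted p = 1.49e-05), at a low level. Among the 18 regulators, the nuclear sigma factors that direct plastid transcription moved in both directions, with SIG5 at 0.22 ± 0.028 (SE, adjusted p = 5.35e-07) and SIG2 at -0.12 ± 0.030 (SE, adjusted p = 0.00516). With DESeq2 the adjusted p of SIG2 was 0.0234, which was not called. The transcripts of their plastid targets were listed at 0 and could not be compared.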
